A study of Homo sapiens with 12 samples.

Results

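The histone mark H3K27me3, which the EZH2 subunit of Polycomb repressive complex PRC2 writes and which goes with silent genes, was measured near the homeobox transcription factor genes that lie outside the HOX clusters. The genes were taken by name from the deposited peak annotation: every symbol that starts with the prefix of a non-HOX homeobox family (LHX, LMX, ISL, POU, IRX, MEIS, ALX, OTX, PITX, PRRX, VSX, NKX, MSX, DLX, BARHL, BARX, EMX, DBX, EN, GBX, EVX, GSX, HMX, TLX, VAX or the sine oculis prefix that SIX2 carries) followed by a digit, and that was the nearest gene of a peak whose centre lay within 10 kb of the transcription start site (TSS). This gave 99 of the 18981 genes with such a peak. The cells were T24, an established human bladder cancer line. They received 5 µM GSK-126 (an inhibitor of EZH2), 5 µM fenretinide (a synthetic retinoid), both compounds at 5 µM each (the combination), or the solvent DMSO as vehicle, and treatment with the compounds lasted 72 h. Each condition had 1 ChIP-seq library, so no difference has a replicate check and no p-value is given. The RNA-seq and input libraries of the series were not analysed here, so the cell line was not checked against expressed markers.

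Homeobox genes encode transcription factors that bind DNA through a homeodomain and set the identity of tissues and neurons in the embryo. In cells that do not use them, many lie in wide domains of H3K27me3, often around start sites rich in CpG dinucleotides, and they are among the classic targets of Polycomb. Retinoic acid, which retinoids imitate, controls several homeobox genes in the embryo.

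A gene's value was the number of sequenced fragments in the deposited consensus intervals that its peaks overlap. The 4 libraries held 15812933 to 18928836 interval fragments, so each ratio below is a ratio of library shares, given with an exact 95% counting interval that covers counting error only. Calls needed 50 fragments in both libraries together and a counting interval that left out 1: higher means a ratio of 2 or more, lower a ratio of 0.5 or less. No spike-in is named in the labels, so a higher or lower share need not be a gain or loss of the mark itself. A second scale used the 25% of intervals with the fewest fragments per kb as the base (background scaling). Against vehicle, it shifted log2 ratios by -0.77 with GSK-126, by -0.13 with fenretinide and by -0.81 with the combination.

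Of the 99 symbols, 85 were protein-coding homeobox genes. The other 14 were antisense or neighbouring transcripts, pseudogenes and POU2AF1, a coactivator of POU factors that has no homeodomain. The symbols occupied 151 intervals that covered 3.02 Mb, and 54 of them had 1 interval. Neighbours shared intervals, as DLX5, DLX6 and DLX6-AS1 did, so the 99 symbols stood for 90 separate loci, and 33 symbols shared an interval with some other gene. Too few fragments for the GSK-126 comparison were found near 8 members, among them SIX4, SIX5, LHX9, IRX3, IRX5, POU1F1 and MEIS1-AS2, which left 91 measured. Near LHX9, for example, there were 3 fragments with GSK-126 and 12 with vehicle.

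In vehicle-treated cells the homeobox genes lay in wide marked domains. Summed interval width had a median of 28.7 kb over the 86 members with at least 100 vehicle fragments, against 23.8 kb over 10455 genes with as many. LHX5, a LIM factor of the developing nervous system, had the widest at 201 kb, and OTX2, a factor of forebrain and eye, shared 157 kb with OTX2-AS1. The median density, not scaled for depth, was 10.6 fragments per kb with GSK-126, 16.3 with fenretinide, 10.1 with the combination and 19.4 with vehicle. Over the 10455 genes it was 9.3 with GSK-126, 16.3 with fenretinide, 9.89 with the combination and 17 with vehicle. GBX1, a forebrain and spinal cord factor, was the densest member with vehicle at 40.4 fragments per kb, followed by VSX1 of the retina at 38.8, MEIS1-AS3 at 38.1, the pseudogene MSX2P1 at 35 and VAX2 of the ventral eye at 34.9.

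The 151 intervals took 0.223% of the fragments with GSK-126, 0.309% with fenretinide, 0.227% with the combination and 0.39% with vehicle. The deposited peaks also broke up there. The intervals held 392 peaks with GSK-126, 326 with fenretinide, 438 with the combination and 242 with vehicle, and those peaks covered 52.9% of the interval length with GSK-126, 81.5% with fenretinide, 63.5% with the combination and 89.7% with vehicle. Over the whole table there were 217751 peaks with GSK-126, 234815 with fenretinide, 274393 with the combination and 212277 with vehicle. The covered share there was 54% with GSK-126, 57.5% with fenretinide, 64% with the combination and 54.2% with vehicle. Of the 99 members, 86 were less covered by peaks with GSK-126 than with vehicle, 11 were more covered and 2 were equal. This count was not made gene by gene over all genes, so it has no share to stand beside. Near LHX5, 27 peaks with GSK-126 stood where vehicle had 4. The ALX4 interval held 8 peaks with GSK-126 and 1 with vehicle. Intervals were built from the peaks of all 4 libraries, so these shares depend on what was called in each.

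**Figure D1:**
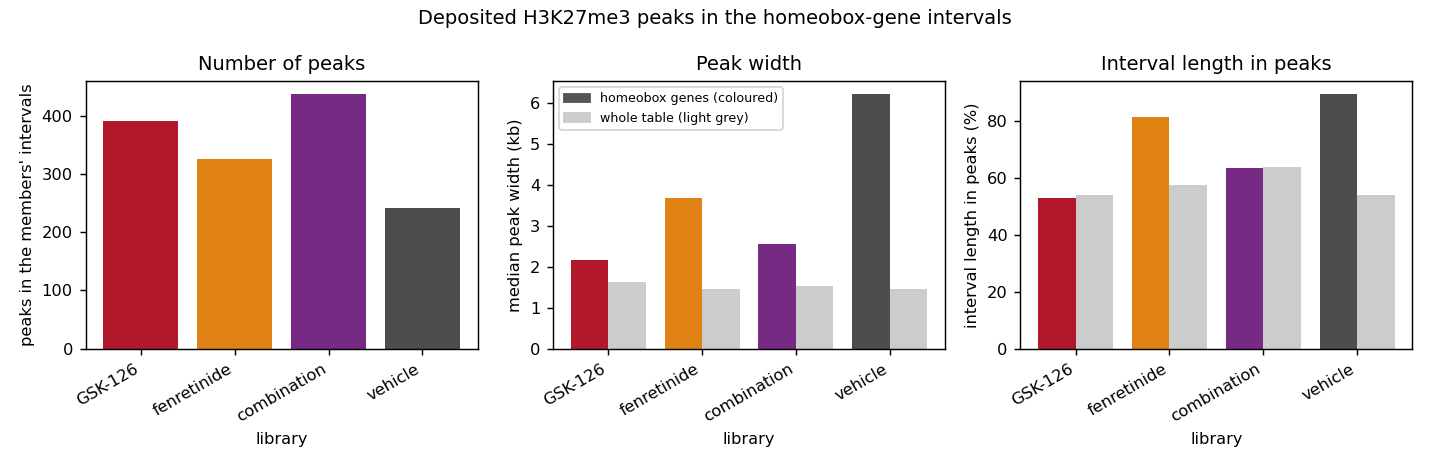
Deposited H3K27me3 peaks in the 151 homeobox-gene intervals by library: number of peaks, median peak width in kb and share of interval length inside peaks in percent, with light grey bars for the whole table. Vehicle has the fewest peaks (242), the widest (median 6.23 kb) and the highest covered share (89.7%), and GSK-126 the narrowest (2.16 kb) and the lowest covered share (52.9%).

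Promoter windows of 300 bases around the RefSeq start site (build GRCh38.p14) could be matched for 63 members, and 48 of these windows lay inside one of the member's intervals. They held a median of 23 CpG, against 14 over the 27305 genes in the table, and a median GC content of 66.7% against 58.3%. The homeodomain core motif TAATTA, which reads the same on both strands, occurred in 4 of the 63 windows (6.35%), against 4.98% of all windows. The 27 windows of genes lower with GSK-126 had a median of 28 CpG, and 17 of them lay inside an interval. The 32 of genes called neither way had a median of 21 CpG, and 30 lay inside. Examples printed below are LMX1B, NKX1-2, LHX2 and TLX1, which were lower with GSK-126, and IRX1, which was higher. These 5 chosen windows all lay inside a marked interval. They come from chr9:126613678-126613977 (plus strand), chr10:124449986-124450285 (minus strand), chr9:124011518-124011817 (plus strand), chr10:101131050-101131349 (plus strand) and chr5:3595582-3595881 (plus strand), are written 5′ to 3′ in the direction of the gene, and have each CpG in capitals.
LMX1B: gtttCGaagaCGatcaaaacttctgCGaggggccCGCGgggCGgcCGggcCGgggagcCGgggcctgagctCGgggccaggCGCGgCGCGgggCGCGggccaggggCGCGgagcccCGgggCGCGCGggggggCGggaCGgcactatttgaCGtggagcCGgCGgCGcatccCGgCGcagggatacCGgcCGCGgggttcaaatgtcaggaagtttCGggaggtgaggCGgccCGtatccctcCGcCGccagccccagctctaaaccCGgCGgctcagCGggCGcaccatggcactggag
NKX1-2: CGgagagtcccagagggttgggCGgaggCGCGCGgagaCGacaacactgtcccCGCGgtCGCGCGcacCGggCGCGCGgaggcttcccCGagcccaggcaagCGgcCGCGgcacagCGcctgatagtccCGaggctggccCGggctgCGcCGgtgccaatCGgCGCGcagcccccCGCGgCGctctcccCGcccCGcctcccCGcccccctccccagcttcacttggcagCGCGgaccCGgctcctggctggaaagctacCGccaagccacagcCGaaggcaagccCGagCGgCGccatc
LHX2: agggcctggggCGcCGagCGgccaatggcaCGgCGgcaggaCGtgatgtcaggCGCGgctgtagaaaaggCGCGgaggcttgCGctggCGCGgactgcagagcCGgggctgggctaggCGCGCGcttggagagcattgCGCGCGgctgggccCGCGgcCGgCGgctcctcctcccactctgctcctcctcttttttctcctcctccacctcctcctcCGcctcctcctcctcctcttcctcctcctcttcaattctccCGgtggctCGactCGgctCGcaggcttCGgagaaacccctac
TLX1: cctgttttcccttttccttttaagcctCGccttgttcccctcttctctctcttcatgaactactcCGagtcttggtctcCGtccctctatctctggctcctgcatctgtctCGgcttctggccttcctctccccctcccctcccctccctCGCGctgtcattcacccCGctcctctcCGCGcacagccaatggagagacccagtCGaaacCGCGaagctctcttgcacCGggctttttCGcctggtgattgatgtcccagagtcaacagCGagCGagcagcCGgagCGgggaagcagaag
IRX1: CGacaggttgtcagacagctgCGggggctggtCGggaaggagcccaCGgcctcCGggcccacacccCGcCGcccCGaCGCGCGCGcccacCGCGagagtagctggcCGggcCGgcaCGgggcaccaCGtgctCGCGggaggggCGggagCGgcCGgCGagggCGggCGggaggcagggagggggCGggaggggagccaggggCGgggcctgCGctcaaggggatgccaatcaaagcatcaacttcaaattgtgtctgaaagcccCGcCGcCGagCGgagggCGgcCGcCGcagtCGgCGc
The LMX1B window held 42 CpG, NKX1-2 held 41, IRX1 held 38, LHX2 held 30 and TLX1 held 18. All windows of genes lower with GSK-126 ran from 14 CpG (MEIS3) to 49 (POU3F1), and IRX1, which was higher, lay within that range.

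GSK-126 against vehicle asked where inhibition of EZH2 changed the mark's distribution. Of 91 measured members, 40 were lower (44%), 4 were higher (4.4%) and 47 were neither. Over all 14725 measured genes 41.4% were lower and 11.5% were higher, so the share of lower members stood near that of all genes. The median log2 ratio was -0.85 for the members and -0.79 for all genes. With background scaling 71 of the 91 members were lower and 0 were higher, against 68.6% lower and 7.25% higher over all genes. Whatever their call, 76 members (83.5%) had a ratio below 1 and 15 a ratio above 1, and 74.9% of all measured genes were below 1.

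**Figure D2:**
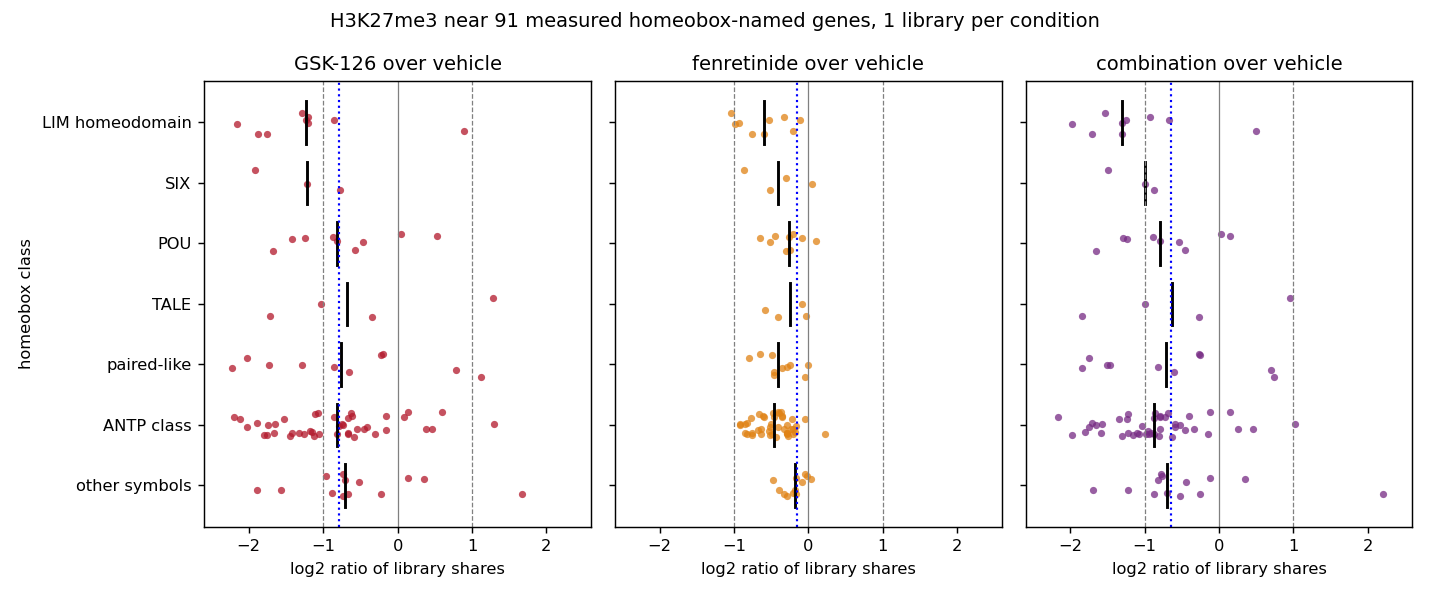
Log2 ratio of H3K27me3 library shares over vehicle for GSK-126, fenretinide and the combination, by homeobox class; each point is 1 gene, black bars are class medians, the blue dotted line is the median of all genes, and dashed lines mark 2-fold. LIM homeodomain genes have a median of -1.23 with GSK-126, and with fenretinide all classes lie mostly between 0 and -1.

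Among LIM homeodomain genes, which pair a homeodomain with LIM protein-binding domains, 7 of 9 measured were lower with GSK-126, with a median log2 ratio of -1.23. LMX1B, needed for limbs, kidney and dopamine neurons, had 161 fragments with GSK-126, 426 with fenretinide, 179 with the combination and 764 with vehicle. Its GSK-126 ratio was 0.223 (0.187 to 0.265), in 1 interval at chr9:126607412-126630549 that covers 19.1% of the gene's RefSeq span. All 3 treated libraries stood below vehicle, and the 2 with GSK-126 were the lowest. LHX2, a factor of cortex and hair follicle, had 295 fragments with GSK-126, 749 with fenretinide, 323 with the combination and 1143 with vehicle, a GSK-126 ratio of 0.274 (0.24 to 0.311). The other lower LIM genes were LHX3 of the pituitary and motor neurons at 0.41, LHX4 at 0.294, LHX5 at 0.433, LHX6 of cortical interneurons at 0.426 and the motor neuron factor ISL2 at 0.434. Not called were LMX1A, the paralogue of LMX1B, at 0.556 (0.479 to 0.644) and LHX8 of forebrain cholinergic neurons, which was on the other side of 1 at 1.86 (1.56 to 2.22). With background scaling LHX8 was at 1.09 (0.916 to 1.31).

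The ANTP class, the largest homeobox class and the one that also holds HOX genes, had 20 lower, 1 higher and 22 neither of 43, with a median of -0.81. NKX1-2 had 86 fragments with GSK-126, 331 with fenretinide, 145 with the combination and 399 with vehicle, a GSK-126 ratio of 0.229 (0.179 to 0.289). Its interval at chr10:124440583-124458786 spans the whole gene and also counts for LHPP. GSX2, which patterns the ventral forebrain, had 26 fragments with GSK-126, 90 with fenretinide, 26 with the combination and 129 with vehicle, a GSK-126 ratio of 0.214 (0.135 to 0.328). DLX4, a distal-less family gene expressed in placenta, had 186 fragments with GSK-126, 522 with fenretinide, 220 with the combination and 804 with vehicle, a ratio of 0.245 (0.208 to 0.288). In each of these genes the libraries ran in the same order, with both GSK-126 libraries lowest, fenretinide between and vehicle highest. GBX1, the densest member, had 591 fragments with GSK-126, 1454 with fenretinide, 611 with the combination and 1984 with vehicle, a ratio of 0.316 (0.288 to 0.346). TLX1, which is needed for the spleen in mice, stood at 0.269 (0.237 to 0.305), and TLX1NB shares its main interval. BARX2, EMX1 of the cortex, MSX1 of teeth and palate, and NKX2-5 of the heart were lower as well, at 0.319, 0.298, 0.293 and 0.348. None of the MSX1 intervals overlaps the gene's RefSeq span or promoter window. Most NKX2-5 fragments came from an interval off the gene, with 307 for GSK-126 and 894 for vehicle. The interval that spans NKX2-5 had 101 with GSK-126 and 351 with vehicle.

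Other ANTP genes were not called. NKX2-1 of thyroid and lung had 612 fragments with GSK-126, 517 with fenretinide, 498 with the combination and 588 with vehicle, a GSK-126 ratio of 1.1 (0.984 to 1.24). Its chromosome 14 neighbour NKX2-8 was at 1.37 (1.16 to 1.63), a sum over intervals that went opposite ways. The interval that spans NKX2-8 had 236 fragments with GSK-126 and 87 with vehicle. The other, which does not overlap the gene, had 81 with GSK-126 and 158 with vehicle. NKX2-2 and NKX2-4, neighbours on chromosome 20, were at 0.731 (0.65 to 0.821) and 0.81 (0.722 to 0.909). Most NKX2-4 fragments came from an interval that does not overlap the gene, with 471 for GSK-126 and 534 for vehicle. The interval that spans NKX2-4 had 46 fragments with GSK-126 and 129 with vehicle. TLX3, a paralogue of TLX1 that specifies sensory neurons, was at 1.52 (1.29 to 1.79). With background scaling the ratios of NKX2-1, NKX2-8 and TLX3, each over all of the gene's intervals, were below 1, at 0.649, 0.807 and 0.895.

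Paired-like genes had 4 lower, 1 higher and 5 neither of 10. PRRX2, a factor of limb and craniofacial mesenchyme, was the member furthest below vehicle: it had 146 fragments with GSK-126, 586 with fenretinide, 188 with the combination and 730 with vehicle, a GSK-126 ratio of 0.212 (0.176 to 0.254). Its interval, chr9:129686120-129708281, covers 38.9% of the gene's span and leaves out the RefSeq promoter window. The paralogue PRRX1, a mesenchymal regulator, stood at 0.878 (0.764 to 1.01), a counting interval that does not overlap that of PRRX2. ALX4, a craniofacial gene, had 409 fragments with GSK-126, 1390 with fenretinide, 486 with the combination and 1769 with vehicle, a ratio of 0.245 (0.22 to 0.273). Its paralogue ALX1 lay above 1 at 1.74 (1.3 to 2.34). PITX3 of lens and dopamine neurons was lower at 0.293 (0.146 to 0.551), on 13 GSK-126 and 47 vehicle fragments. OTX2 was neither, at 0.856 (0.814 to 0.9), over the 157 kb it shares with OTX2-AS1.

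POU genes, in which a POU-specific domain joins the homeodomain, had 3 lower and 6 neither of 9. The neural POU3F genes formed a graded series: POU3F1 was at 0.311 (0.249 to 0.386), POU3F2 at 0.419 (0.359 to 0.489), POU3F3 at 0.724 (0.669 to 0.783) and POU3F4 at 1.03 (0.791 to 1.35), and neighbours in that order did not overlap except POU3F1 with POU3F2. POU2F3, the master factor of tuft cells, was lower at 0.372 (0.304 to 0.453). Of the 3 measured sine oculis homologues, SIX2, which maintains kidney progenitors, was lower at 0.263 (0.2 to 0.342), SIX6 of the eye was lower at 0.428 (0.365 to 0.499), and SIX3 was neither at 0.585. TALE genes, whose homeodomain carries a loop of extra residues, had 2 lower, 1 higher and 1 neither of 4. Lower were the HOX cofactor gene MEIS3 at 0.305 (0.253 to 0.365) and the heart factor gene IRX4 at 0.49 (0.463 to 0.519).

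Of the 4 members that were higher with GSK-126, 3 are described here, and IRX1 and NKX6-2 have paralogues that were lower. IRX1, a patterning gene of lung and brain, had 2175 fragments with GSK-126, 994 with fenretinide, 1691 with the combination and 951 with vehicle, a GSK-126 ratio of 2.43 (2.25 to 2.62) over 1 interval at chr5:3555634-3637727 that spans the gene. Both GSK-126 libraries were high and fenretinide was level with vehicle. IRX4, on the same chromosome, was lower. NKX6-2, an oligodendrocyte factor, had 162 fragments with GSK-126, 54 with fenretinide, 131 with the combination and 70 with vehicle, a ratio of 2.45 (1.84 to 3.3) at chr10:132782929-132791862, which spans the gene. NKX6-3 was at 0.285 (0.216 to 0.372) and NKX6-1 of pancreas and motor neurons at 0.902 (0.739 to 1.1). The pseudogene POU5F1P3 was at 3.26 (1.75 to 6.45) on 43 GSK-126 and 14 vehicle fragments. It is a near-identical copy of POU5F1, but its intervals do not overlap its own RefSeq span. Those intervals held peaks only in the GSK-126 and combination libraries. POU5F1P3 is a member only through these libraries, so its higher calls are not independent of how it was chosen. With background scaling these 3 stayed above 1 without reaching 2, at 1.43 (1.32 to 1.54) for IRX1, 1.44 (1.08 to 1.94) for NKX6-2 and 1.92 (1.03 to 3.79) for POU5F1P3. The direction of NKX6-2 depended on which intervals were counted: its log2 ratio turned to -0.61 with intervals at any distance and to -0.74 over its RefSeq span with 10 kb on each side. That of POU5F1P3 turned to -0.33 with intervals at any distance.

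**Figure D3:**
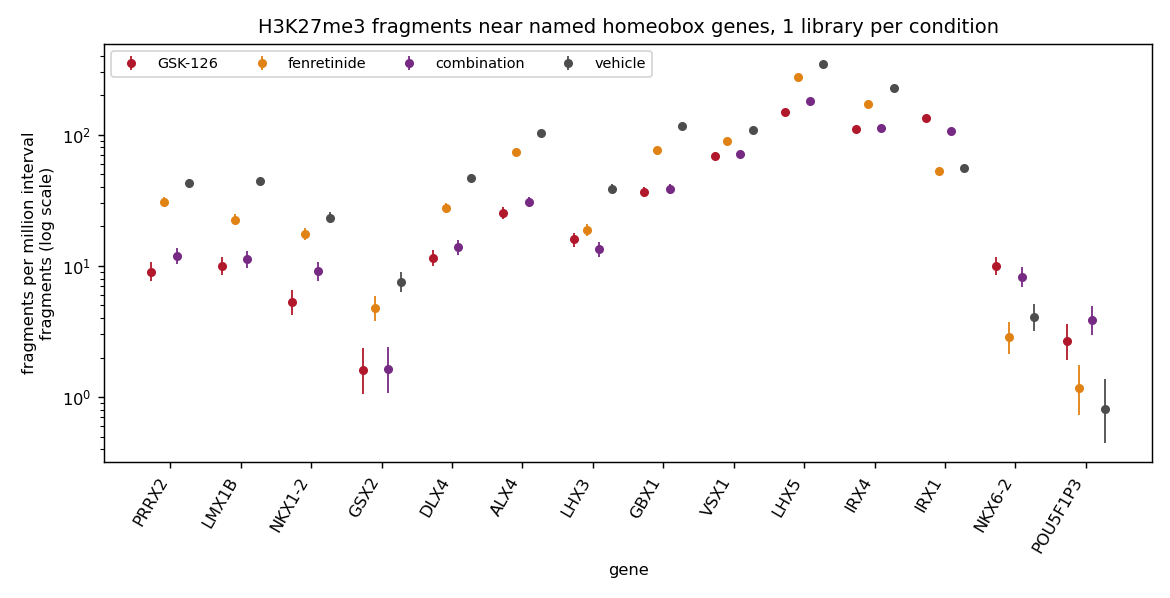
H3K27me3 fragments scaled to each library's interval fragments (CPM, log scale) near 14 homeobox-named genes in the 4 libraries, with exact 95% Poisson counting intervals. From PRRX2 to IRX4 the GSK-126 and combination libraries lie below vehicle, and for IRX1, NKX6-2 and POU5F1P3 they lie above it.

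By position, 6 of the 7 measured members on chromosome 9 were lower with GSK-126 (LHX2, LHX3, LHX6, LMX1B, PRRX2 and BARHL1), against 43.8% of the 603 genes there. On chromosome 14 it was 1 of 7, against 36.3% of 496 genes, and on chromosome 7 it was 2 of 9, against 35.8% of 757 genes. Chromosomes were singled out after their values were seen, and no test was run on these counts. By density, measured with fenretinide so that the compared libraries were not used, 16 of the 31 densest members were lower with GSK-126 and 0 were higher. Of the 30 least dense members 12 were lower, and all 4 higher members were among them. Across the 91 members the density with fenretinide and the GSK-126 log2 ratio had a Pearson r of -0.42 and a Spearman rho of -0.27, against -0.58 and -0.35 across all 14725 genes. Summed interval width had a Pearson r of 0.00 and a Spearman rho of 0.06 with the log2 ratio. Genes that share intervals are not independent points, and these correlations are descriptions.

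Fenretinide against vehicle asked whether the retinoid alone moved the mark. Of 91 measured members 1 was lower (1.1%) and 0 were higher, against 1.5% lower and 0.337% higher over all genes. The 1 was LHX3, with 257 fragments with GSK-126, 356 with fenretinide, 212 with the combination and 664 with vehicle, a fenretinide ratio of 0.485 (0.425 to 0.553). LMX1B lay just outside the limit at 0.505 (0.447 to 0.569). Ratios somewhat below 1 were common: 87 of 91 members (95.6%) had a log2 ratio below 0, against 69% of all genes, and their median was -0.39 against -0.15 for all genes. At a limit of 1.5-fold 22 members were lower (24.2%) and 0 higher, against 8.62% of all genes lower. Among these 22 were DLX4, EMX1, EN2, EVX1, GBX1, GBX2, GSX2, HMX1, HMX2, HMX3, ISL2, LHX2, LHX3, LHX4, LMX1B, MSX1, NKX2-6, NKX6-1, NKX6-3, POU3F1 and SIX2. They included all 3 HMX genes of inner ear and hypothalamus. LIM homeodomain genes had the lowest class median at -0.60, followed by the ANTP class at -0.46. GBX2, a midbrain-hindbrain organiser gene, had 214 fragments with GSK-126, 131 with fenretinide, 113 with the combination and 214 with vehicle, a fenretinide ratio of 0.554 (0.442 to 0.692) and a GSK-126 ratio of 1.06 (0.873 to 1.29). For NKX6-1 there were 188 fragments with GSK-126, 135 with fenretinide, 154 with the combination and 221 with vehicle, a fenretinide ratio of 0.553 (0.443 to 0.688). Both comparisons share the vehicle library.

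The combination against vehicle gave 35 lower (38.5%), 2 higher (2.2%) and 54 neither of 91, against 32.9% lower and 9.86% higher over all genes. The median log2 ratio was -0.87 for the members and -0.64 for all genes. With background scaling 76 of the 91 were lower and 1 higher, against 69.2% lower and 5.13% higher over all genes. LMX1B at 0.254 (0.215 to 0.299), PRRX2 at 0.279 (0.236 to 0.328), ALX4 at 0.298 (0.269 to 0.329), GSX2 at 0.218 (0.137 to 0.335) and NKX6-3 at 0.254 (0.19 to 0.337) stood furthest below vehicle when ranked by the upper counting bound. The 2 higher members were NKX6-2 at 2.03 (1.51 to 2.75) and POU5F1P3 at 4.72 (2.61 to 9.14). POU5F1P3 is a member only through peaks of the GSK-126 and combination libraries. IRX1 fell just short of 2, at 1.93 (1.78 to 2.09). With background scaling NKX6-2 was at 1.15 (0.857 to 1.57), and its log2 ratio turned to -0.78 with intervals at any distance and to -0.82 over its RefSeq span.

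The combination against GSK-126 asked what fenretinide added once EZH2 was inhibited. Of 89 measured members 0 were lower and 0 higher, against 0.501% lower and 0.443% higher over all genes. Log2 ratios ran from -0.89 to 0.78, with a median of 0.03 against 0.08 for all genes. The members' median turned to -0.10 with DESeq2 size factors, -0.08 with TMM factors and -0.02 with background scaling. It was -0.04 within 2 kb of the TSS and -0.02 within 5 kb, so its sign depended on the setting. GBX2 was the lowest at 0.539 (0.426 to 0.681) and NKX1-2 the highest at 1.72 (1.31 to 2.28).

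The combination against fenretinide asked what GSK-126 added to the retinoid. Of 89 measured members 10 were lower (11.2%), 3 were higher (3.37%) and 76 were neither, against 18.7% lower and 9.43% higher over all genes. With background scaling 58 of the 89 were lower and 1 higher, against 59.6% lower and 4.72% higher over all genes. The calls named next are those of the main scale. Lower were PRRX2 at 0.384 (0.324 to 0.453), TLX1 at 0.406 (0.359 to 0.459) with TLX1NB, ALX4, BARX2, GSX2, MEIS1-AS3, MEIS3, NKX6-3 and POU3F1. Higher were NKX6-2 at 2.9 (2.1 to 4.06), IRX1 at 2.04 (1.88 to 2.2) and POU5F1P3 at 3.32 (2.01 to 5.68), of which POU5F1P3 stayed past 2 with background scaling. POU5F1P3 had no peak with fenretinide or vehicle and is a member only through the libraries that received GSK-126. The log2 ratio of NKX6-2 turned to -0.11 with intervals at any distance and to -0.17 over its RefSeq span. This comparison shares no library with GSK-126 against vehicle. Across the 89 members measured in both, the log2 ratios had a Pearson r of 0.93 and a Spearman rho of 0.90, and across 14382 genes 0.94 and 0.90, so the order of the homeobox genes was close in both pairs of libraries. The ratio with fenretinide present divided by the ratio without it had a median of 1.34 over the members and 1.19 over all genes. LMX1B, for example, was at 0.503 (0.42 to 0.6) in the combination against fenretinide and at 0.223 in GSK-126 against vehicle.

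**Figure D4:**
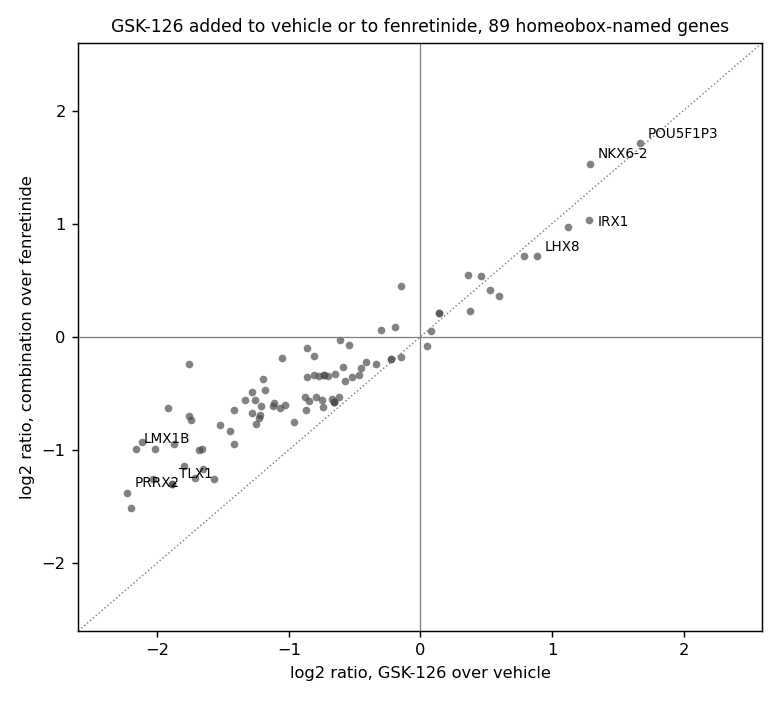
Log2 ratio of GSK-126 over vehicle (x axis) and of the combination over fenretinide (y axis) for 89 homeobox-named genes, 1 point per gene; the dotted line marks equal ratios. The points follow a rising band (Pearson r of 0.93) that lies above the dotted line on the left, and NKX6-2, IRX1 and POU5F1P3 are at the upper right.

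Fenretinide's own ratio differed between the pairs of libraries. In 13 of 88 members it was below 1 over vehicle and above 1 over GSK-126, with both counting intervals excluding 1. These are 12 loci, since EMX2 and EMX2OS share an interval. The same pattern was found in 1557 of 13040 genes (11.9%), so the members' share stood near that of all genes. The other way round there were 0 members, against 411 of 13040 genes. The 13 members were ALX4, DBX1, EMX2, EMX2OS, LHX5, MSX1, MSX2P1, NKX1-2, NKX2-3, NKX2-5, PRRX2, VAX1 and VAX2. For PRRX2 the ratio was 1.32 (1.05 to 1.64) with GSK-126 present and 0.727 (0.651 to 0.811) without it. The MSX1 ratio was 1.52 (1.04 to 2.25) with GSK-126 and 0.527 (0.407 to 0.679) without it. The count depended on scaling: of these 13, 2 showed the pattern with DESeq2 size factors (LHX5 and NKX1-2), 3 with TMM factors and 10 with background scaling.

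**Figure D5:**
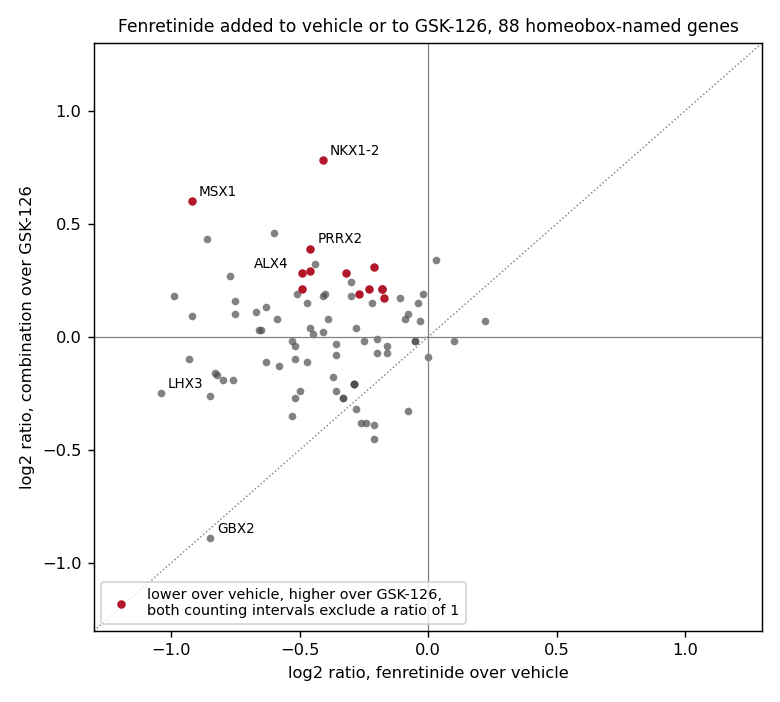
Log2 ratio of fenretinide over vehicle (x axis) and of the combination over GSK-126 (y axis) for 88 homeobox-named genes, 1 point per gene; red points are the 13 members on opposite sides of 0 with both counting intervals excluding a ratio of 1. Most points lie left of 0 and are spread around 0 on the y axis, with NKX1-2 and MSX1 at the upper left and GBX2 at the lower left.

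Homeobox genes of other families were listed for context, and 60 of 76 had an interval. With GSK-126 against vehicle 26 of 53 measured were lower, 2 were higher and 25 were neither, that is 49.1% lower and 3.77% higher against 41.4% and 11.5% of all genes. Their median log2 ratio was -1.00, against -0.79 for all genes. Examples chosen after their values were seen are PAX7 of muscle progenitors at 0.249, UNCX at 0.251 and CUX2 of upper cortical layers at 0.298, all lower, and HHEX of liver and blood vessels at 3.98, which was higher. With fenretinide 0 of 53 were lower or higher, and their median of -0.24 lay nearer to that of all genes than the -0.39 of the members did. Of 14 PRC2 subunit genes 6 had an interval, and the 5 measured with GSK-126 (EED, RBBP7, MTF2, AEBP2 and C17orf96) were lower, against 41.4% of all genes. Some rest on few fragments: RBBP7 had 12 with GSK-126 and 58 with vehicle, and AEBP2 had 12 with GSK-126 and 49 with vehicle.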

How the data were processed

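The samples used were 4 H3K27me3 ChIP-seq libraries of T24 cells, 1 per condition, and their groups came from the sample titles. The authors deposited raw fragment counts for 273664 consensus intervals, made with featureCounts 2.0.1 on read pairs without strand, with a minimum overlap fraction of 0.2 and counting in every interval overlapped, per the file headers. They also deposited 1 list of broad peaks per library, with a peak score whose scale is not stated. Per the submitters' processing notes, peaks were called with MACS2 2.1.0 and GRCh38 (hg38) was the build. Per the file headers, HOMER supplied the nearest gene and the distance to its TSS, another value in the deposited lists. Which aligner and which control for peak calling were used is not given in the sources used here.

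Each gene's value was the sum over intervals hit by a peak of any library whose nearest gene was that symbol within 10 kb. Genes that share an interval each received its count. Ratios were taken between shares of all interval fragments (15812933 to 18928836 per library), with Clopper-Pearson 95% counting intervals, which cover counting error only and compare libraries, not conditions. Log2 ratios used a pseudocount of 0.5. With 1 library per condition, no test was run. The members, gene lists and families were chosen with earlier results of these data known. Any member could be named, but the results of some are not reported here. Meant for full values were the 5 largest rises and 5 largest falls for each treated library against vehicle, and up to 3 each way for the combination against each compound. The 5 densest with vehicle and the 3 widest were added to these. Some of them were given in part only, such as VSX1 with its density and TLX1 and NKX6-3 with ratios. Alternatives were size factors from DESeq2 1.42.0, TMM factors from edgeR 4.0.16, background scaling, a ratio of 1.5, other TSS distances, other count minimums, stricter peak choices, protein-coding symbols, and, chosen after seeing the data, 1 value per locus and RefSeq spans with 10 kb. Neither DESeq2 nor edgeR was used for a test. Promoter sequences came from RefSeq. Software was R 4.3.3 and Python 3.11.15 with scipy 1.17.1, pandas 2.3.3, numpy 2.4.6 and matplotlib 3.10.9.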

Additional observations from a re-analysis of the deposited data

Results flagged for a closer look

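Each gene here had a fenretinide ratio below 1 over vehicle and above 1 over GSK-126, with both counting intervals excluding 1. This held for 13 of 88 members and for 11.9% of all genes, so the share of members was near that of all genes. The value given is the ratio with GSK-126 present divided by the ratio without it. It was 2.89 for MSX1, 2.29 for NKX1-2, 1.81 for PRRX2, 1.71 for ALX4, 1.68 for NKX2-5, 1.63 for NKX2-3, 1.51 for LHX5, 1.42 for VAX2, 1.38 for VAX1, 1.36 for DBX1, 1.31 for EMX2 and for EMX2OS, which share an interval, and 1.27 for MSX2P1. The MSX1 intervals do not overlap that gene's RefSeq span. The difference between the pairs of libraries was not tested, since each condition had 1 library and the intervals cover counting error only. The median of this value was 1.35 over the 88 members measured in both and 1.2 over 13040 genes.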

How the results depend on the processing

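No paired analysis was possible because each condition had 1 library, and for the same reason no library could be left out. The direction of the members' median log2 ratio was the same under all alternatives for the 3 comparisons against vehicle and for the combination against fenretinide. For the combination against GSK-126 the median of 0.03 fell below 0 with DESeq2, TMM and background scaling (-0.02 with the last). It was also below 0 within 2 kb (-0.04) and 5 kb (-0.02) of the TSS. With DESeq2 size factors, 5 members were lower with fenretinide (median -0.52), 1 was higher in the combination against vehicle (median -1.00), and 1 was lower in the combination against GSK-126 (median -0.10). With TMM factors these values were 5 (median -0.51), 1 (median -1.03) and 1 (median -0.08). With background scaling, 71 members were lower and 0 higher with GSK-126 (median -1.61), 5 lower with fenretinide (median -0.53), 76 lower and 1 higher in the combination against vehicle (median -1.68), and 58 lower and 1 higher in the combination against fenretinide (median -1.21). Of all genes, that scaling made 68.6% lower with GSK-126 and 2.64% lower with fenretinide. It made 69.2% lower in the combination against vehicle and 59.6% in the combination against fenretinide. At a ratio of 1.5, 63 were lower and 7 higher with GSK-126, 22 lower with fenretinide, 64 lower and 5 higher in the combination against vehicle, 1 lower and 2 higher in the combination against GSK-126, and 34 lower and 6 higher in the combination against fenretinide. Fenretinide's count of 1 lower member became 2 within 2 kb or 5 kb of the TSS, with peak scores of at least 20, with vehicle peaks only and with intervals linked to 1 gene. It became 3 (median -0.52) where a peak had to cover 50% of the interval, and 0 (median -0.20) with no distance limit. The 2 higher members of the combination against vehicle became 1 at a minimum of 100 fragments, within 2 kb or 5 kb, with scores of at least 20, with vehicle peaks only, with protein-coding symbols only and over RefSeq spans, and 4 with no distance limit (median -0.62). Higher in the combination against fenretinide were 5 members within 2 kb and 5 with no distance limit. Without a count minimum 1 member was lower and 1 higher in the combination against GSK-126, and over RefSeq spans 2 were higher with GSK-126. With no distance limit the log2 ratio of NKX6-2 reversed to -0.61 with GSK-126, to -0.78 in the combination against vehicle and to -0.11 in the combination against fenretinide. Over its RefSeq span with 10 kb it was -0.74, -0.82 and -0.17 in those comparisons. POU5F1P3 reversed to -0.33 with GSK-126 and no distance limit. The cause of these shifts was not tested. Members with few fragments, such as PITX3 and POU5F1P3, have wide counting intervals.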

Other observations

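Of 104 RefSeq protein-coding symbols that match the name rule, 18 had no peak named after them within 10 kb, and 13 of these had an interval within 10 kb of their span. NKX1-1, whose paralogue NKX1-2 was lower with GSK-126, had 875 fragments with GSK-126, 352 with fenretinide, 547 with the combination and 440 with vehicle in 1 interval that holds other genes' peaks. IRX2, which lies between IRX1 and IRX4, had 3639 fragments with GSK-126, 6462 with fenretinide, 3734 with the combination and 6146 with vehicle over 274 kb. MEIS1, a HOX cofactor, had 121 fragments with GSK-126, 353 with fenretinide, 134 with the combination and 374 with vehicle. DLX1, DLX2, LHX1, POU5F2 and POU5F1B had no interval there, so nothing can be said of them.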
